A study of Mus musculus with 21 samples.

Results

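Complement genes of the mouse hippocampus, 8 in all, were followed across region and vector arm after ethanol: the C1q subunits C1qa, C1qb and C1qc, the components C3 and C4b, the anaphylatoxin receptors C3ar1 and C5ar1, and the C1 inhibitor Serping1. They were taken by symbol from a table of read counts that lists 24498 genes, and all 8 symbols were present. Of these, 7 passed a filter on low counts and entered the tests on 14578 genes. C5ar1 did not pass and is described by its levels.

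Complement is a proteolytic cascade. C1q binds a target and, through the proteases C1r and C1s, leads to cleavage of C4 and C2 and then of C3, whose fragments tag surfaces for uptake and signal through receptors such as C3aR, while the related fragment of C5 signals through C5aR1. In brain, microglia are the known main source of C1q and carry the anaphylatoxin receptors, C4 transcripts are known from astrocytes and other glia, and C3 and Serping1 are widely used as markers of reactive astrocytes. C1q and C3 are also known for tagging synapses that microglia remove.

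The libraries were made from total RNA of male mice aged 8 weeks, with a directional kit. Ethanol was given intraperitoneally at 2 g/kg as a 20% solution in saline. The dorsal groups held 5 ACSS2 knockdown and 3 control ethanol libraries, the ventral groups held 4 and 4, and 1 further knockdown library came from total hippocampus. The 21 libraries include 2 knockdown and 2 control dorsal libraries without ethanol, which had been published earlier. ACSS2 makes acetyl-CoA from acetate, a product of ethanol breakdown. The knockdown vector was an adeno-associated virus (AAV2/9; U6.shACSS2.CMV.EGFP), in which the U6 promoter drives a short hairpin RNA against Acss2 and the CMV promoter drives a green fluorescent protein. The sample protocol places it in the dorsal hippocampus by stereotaxic injection, whereas the wording for the series also allows a systemic one. No injection or vector is described for the control arm, so surgery, virus, fluorescent protein and hairpin cannot be told apart from one another in the knockdown comparison. No source used here states the time between ethanol and dissection. Nothing in the labels says that replicates were separate animals, so every p-value reflects the spread among these libraries alone, which may be technical.

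More than 1000000 reads fell in genes in 15 ethanol libraries, from 2819837 to 13240179: 4 dorsal knockdown, 3 dorsal control, 3 ventral knockdown, 4 ventral control and the total hippocampus library. The 2 remaining ethanol libraries held 5021 and 8744 gene reads, and the 4 untreated libraries held 4279 to 221847, with 98.6% to 99.0% of their uniquely placed reads outside genes. The 8 members together had 1 to 9 reads in each of those 6 libraries, so ethanol itself could not be compared for these genes. The targeted gene Acss2 was measured at 44.1, 40.8, 17.9 and 19.2 CPM (read counts scaled to the library total and by the trimmed mean of M values, TMM) in dorsal knockdown libraries 1 to 4 against 52.7, 58.6 and 53.0 CPM in dorsal control libraries 1 to 3. In ventral knockdown libraries 2 to 4 it was at 28.8, 63.8 and 36.5 CPM, against 47.5 to 53.9 CPM in the 4 ventral controls. The dorsal arms did not overlap (edgeR log2 difference -0.84, SE 0.32, adjusted p = 0.964), and the library labelled ventral knockdown 3 lay above every control of its region. The total hippocampus library labelled knockdown was at 58.0 CPM, within the range of the dorsal controls. All 8 hippocampal neuron markers examined were detected, with a summed level of 692 to 1448 CPM in the dorsal libraries.

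Promoter sequences are shown for C1qb, C1qc and C3, the members in which a motif searched for below was matched. All 8 genes lie on the minus strand (mm10, GENCODE M21), are protein coding and share 0 exon bases with another annotated gene. C1qb (chr4:136880129-136886187), C1qc (chr4:136889804-136893065) and C1qa (chr4:136895917-136898803) are neighbours on chromosome 4, each with 3 exon blocks. C3 (chr17:57203970-57228136, 42 exon blocks) and C4b (chr17:34728380-34743882, 40 exon blocks) lie on chromosome 17. C3ar1 is at chr6:122847138-122856161, C5ar1 at chr7:16246743-16259540 and Serping1 at chr2:84765387-84775444. RefSeq windows (GRCm38.p6), from 250 bases before to 50 after the annotated start, were matched for 5 of the 8 members, not for C1qa, C4b and Serping1. The stretches upstream of both the RefSeq and the GENCODE start are printed 5′ to 3′ on the minus strand, with capitals on the motif matches.
C1qb, chr4:136886201-136886450: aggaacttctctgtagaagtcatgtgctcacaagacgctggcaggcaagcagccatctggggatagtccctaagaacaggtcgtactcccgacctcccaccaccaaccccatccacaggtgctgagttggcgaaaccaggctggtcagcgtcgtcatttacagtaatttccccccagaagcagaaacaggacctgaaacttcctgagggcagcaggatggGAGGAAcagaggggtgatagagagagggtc
C1qc, chr4:136893066-136893164: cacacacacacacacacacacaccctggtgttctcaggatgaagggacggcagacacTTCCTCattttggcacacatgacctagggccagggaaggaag
C3, chr17:57228137-57228386: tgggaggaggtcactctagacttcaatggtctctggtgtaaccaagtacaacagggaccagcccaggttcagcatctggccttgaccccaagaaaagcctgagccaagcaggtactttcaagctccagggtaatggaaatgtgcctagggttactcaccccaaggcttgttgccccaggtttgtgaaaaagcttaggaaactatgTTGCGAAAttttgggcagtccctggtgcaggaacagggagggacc

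A search for 4 motifs covered both strands of the 300-base windows. GAGGAA, the core letters bound by the myeloid ETS factor PU.1, was matched in C1qb at bases -30 to -25 from the RefSeq start, and in C1qc at -193 to -188 as its reverse complement TTCCTC. Of all 32817 RefSeq promoter windows, 28.3% held it. TTGCNNAA, a form of the C/EBP site, was matched in C3 at -45 to -38 as TTGCGAAA and occurred in 10.8% of all windows. The gamma-activated site TTCNNNGAA (8.29% of windows) and the interferon-stimulated response element, searched as GAAA and GAAA with 2 bases of any kind between (3.43%) were matched in none of the 5 windows. A match describes the letters only.

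Per kilobase of exon, the order of the genes over the 14 dorsal and ventral libraries was C1qb, C1qa, C1qc, C4b, Serping1, C3ar1, C3 and C5ar1. The medians ran from 48.2 CPM per kilobase for C1qb through 40.1 for C1qa, 22.0 for C1qc, 13.9 for C4b and 3.76 for Serping1 to 0.636 for C3ar1, 0.451 for C3 and 0.248 for C5ar1. C1qa stood above C1qc, C4b above Serping1 and Serping1 above C3ar1 in 14 of 14 libraries. The other neighbours changed places in some libraries: C1qb stood above C1qa in 11, C1qc above C4b in 11, C3ar1 above C3 in 9 and C3 above C5ar1 in 10 of 14. In the dorsal knockdown group, C4b averaged 54.2 ± 36.9 CPM per kilobase (SD, n = 4), in the range of C1qc at 47.0 ± 27.1. In the dorsal control group C4b averaged 7.88 ± 3.12 CPM per kilobase (SD, n = 3) against 17.1 ± 2.61 for C1qc.

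**Figure D1:**
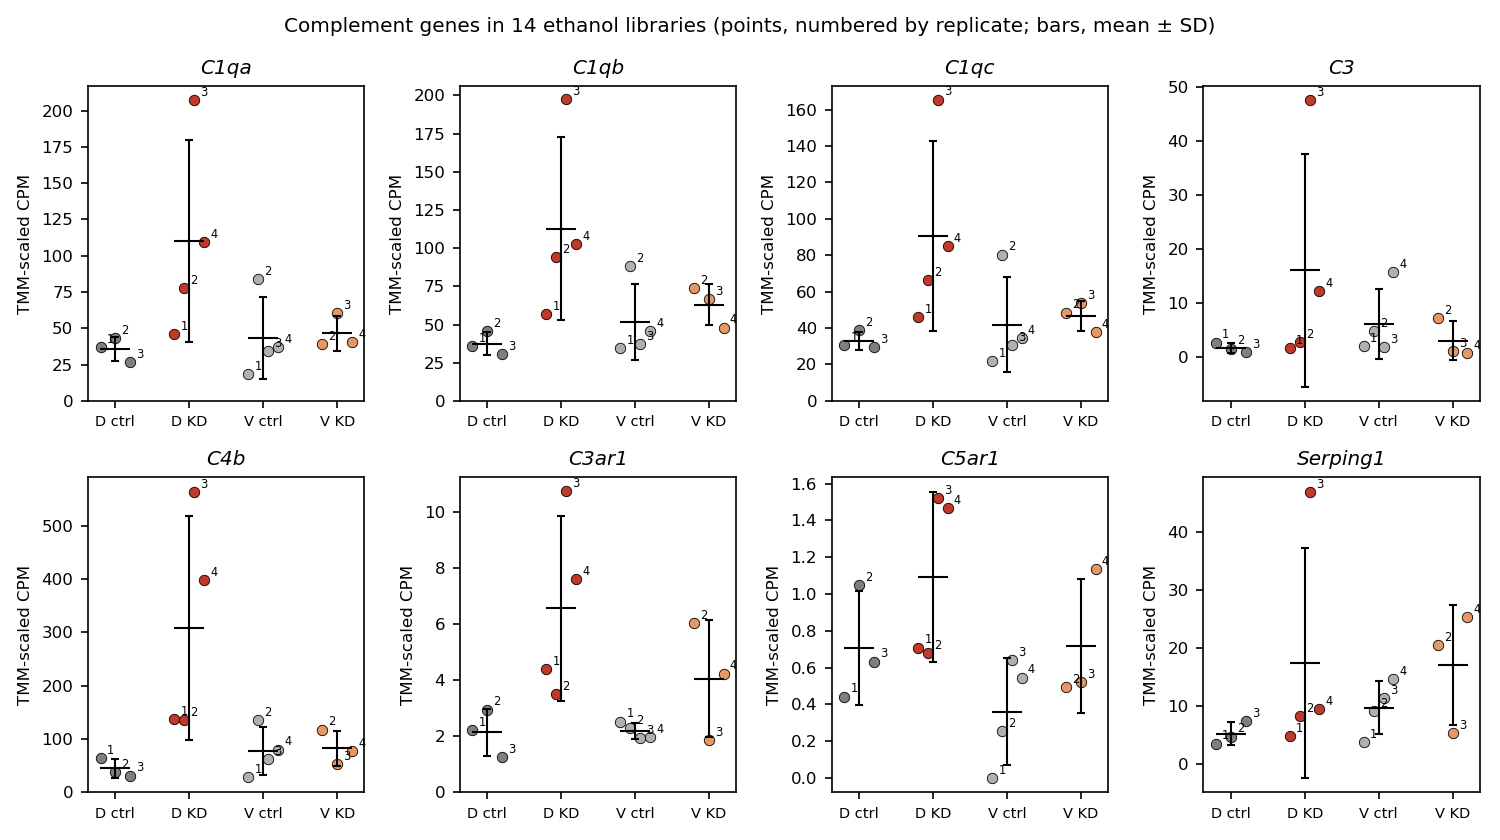
TMM-scaled CPM (y axis, linear, scaled separately for each gene) of the 8 complement genes in the 14 deeply sequenced dorsal and ventral ethanol libraries, by group (x axis; D, dorsal; V, ventral; ctrl, control; KD, ACSS2 knockdown). Points are libraries numbered by replicate and bars are the mean ± SD; dorsal knockdown 3 is the highest library for all 8 genes, while ventral control 2 is the highest ventral library for C1qa, C1qb, C1qc and C4b.

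The knockdown comparison in dorsal hippocampus sets libraries of the ACSS2 knockdown arm against control libraries, all after ethanol. Surgery, virus, fluorescent protein and hairpin are not separated in it. There, the 3 C1q subunits, C4b and C3ar1 were higher in every knockdown library than in every control library. C3 and Serping1 had higher means in the knockdown group, carried mostly by dorsal knockdown 3, and C5ar1 overlapped. No member passed the adjusted threshold of 0.05 in edgeR's quasi-likelihood test, and neither did any of the 14578 genes (0%).

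C1q is built from the products of C1qa, C1qb and C1qc. C1qa was at 46.1, 77.7, 207 and 110 CPM in dorsal knockdown libraries 1 to 4 and at 37.2, 43.0 and 26.9 CPM in dorsal control libraries 1 to 3. C1qb was at 57.0, 94.0, 198 and 103 CPM against 35.9, 45.8 and 30.8 CPM. C1qc was at 46.2, 66.3, 165 and 84.9 CPM against 30.5, 38.8 and 29.7 CPM. For each subunit the 4 knockdown libraries kept the same order, with 3 highest and 1 lowest, and library 1 lay close above the controls. The summed C1q level was 314 ± 182 CPM (SD, n = 4) in the knockdown group and 106 ± 20.2 CPM (SD, n = 3) in the control group, a ratio of means of 2.95, and 2.15 without dorsal knockdown 3. The edgeR log2 differences were 1.63 (SE 0.51) for C1qa, 1.59 (SE 0.41) for C1qb and 1.46 (SE 0.45) for C1qc, each with an adjusted p of 0.955. The subunits stayed in close proportion, with C1qa at 24.1% to 36.9%, C1qb at 34.5% to 46.3% and C1qc at 27.9% to 34.0% of the C1q sum over the 14 libraries.

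C4b encodes complement C4, which C1s cleaves after C1q has bound. It was at 137, 136, 564 and 399 CPM in dorsal knockdown libraries 1 to 4 and at 65.1, 38.0 and 31.6 CPM in the dorsal controls. The lowest knockdown library lay above the highest control, and libraries 3 and 4 stood well above 1 and 2. The edgeR log2 difference was 2.80 (SE 0.61, unadjusted p = 0.000391, adjusted p = 0.955). DESeq2, run as an alternative, called 6 genes in this comparison (0.0304% of those it tested), and C4b was the only member among them, with a log2 difference of 2.79 and an adjusted p of 0.00645. Across the 13 fits of this comparison the adjusted p of C4b ran from 0.00645 to 1.00 and the log2 difference from 2.34 to 3.15. C4b has a near-identical neighbour, C4a, so reads that the authors' counting could not place between them make its level uncertain. C4a was far lower, averaging 3.43 ± 1.53 CPM (SD, n = 4) over the dorsal knockdown libraries against 3.56 ± 0.406 CPM (SD, n = 3) over their controls.

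C3 is the component on which the complement pathways converge. It was at 1.70, 2.71, 47.5 and 12.1 CPM in dorsal knockdown libraries 1 to 4 and at 2.66, 1.52 and 0.844 CPM in the dorsal controls. Libraries 3 and 4 lay above all controls, library 2 only just, and library 1 within their range. The log2 difference was 3.46 (SE 1.28, edgeR adjusted p = 0.955). Its ratio of means, 9.57, came to 3.29 without dorsal knockdown 3, and the counts behind it were small, with 12 to 438 reads per knockdown library and 6 to 16 per control library.

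C3ar1, the receptor for the C3a fragment, was at 4.40, 3.49, 10.7 and 7.60 CPM in dorsal knockdown and at 2.21, 2.95 and 1.27 CPM in dorsal control. The groups did not overlap, and the log2 difference was 1.63 (SE 0.50, edgeR adjusted p = 0.955). The gap was narrow and the counts small: dorsal knockdown 2 held 36 reads of C3ar1 and dorsal control 2 held 31. Dorsal control 1 held 5. C5ar1, the receptor for C5a, was at 0.709, 0.679, 1.52 and 1.47 CPM against 0.443, 1.05 and 0.633 CPM, with 5 to 14 reads per knockdown library and 1 to 11 per control library. Of its knockdown libraries, 2 lay inside the control range. Fitted without the filter on low counts, its log2 difference was 0.52 (SE 0.67, edgeR unadjusted p = 0.447).

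Serping1, which inhibits C1r and C1s, was at 4.82, 8.34, 47.0 and 9.46 CPM in dorsal knockdown and at 3.54, 4.76 and 7.38 CPM in dorsal control. Only library 3 stood far from the controls, and library 1 lay inside their range. The log2 difference was 1.68 (SE 0.75, edgeR adjusted p = 0.999), and the ratio of means of 3.33 came to 1.44 without dorsal knockdown 3.

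Read together, all 7 tested members had a positive dorsal difference, as did 53.3% of all tested genes, and their median was 1.63 against 0.03 for all tested genes. All 7 had an unadjusted edgeR p below 0.05 in the upward direction, against 3.39% of all tested genes (667 genes, or 4.58%, had such a p in either direction). For 5 of the 8 members the values did not overlap between groups and were higher in knockdown, against 3.7% of tested genes, and for 0 members they were lower without overlap, against 3.33%. A filter on low counts can admit a gene through the libraries in which it is high, so these counts are a description. Without dorsal knockdown 3, all 7 differences stayed positive, the 3 C1q subunits, C3ar1 and C4b had an unadjusted edgeR p below 0.05, and the median was 1.17.

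**Figure D2:**
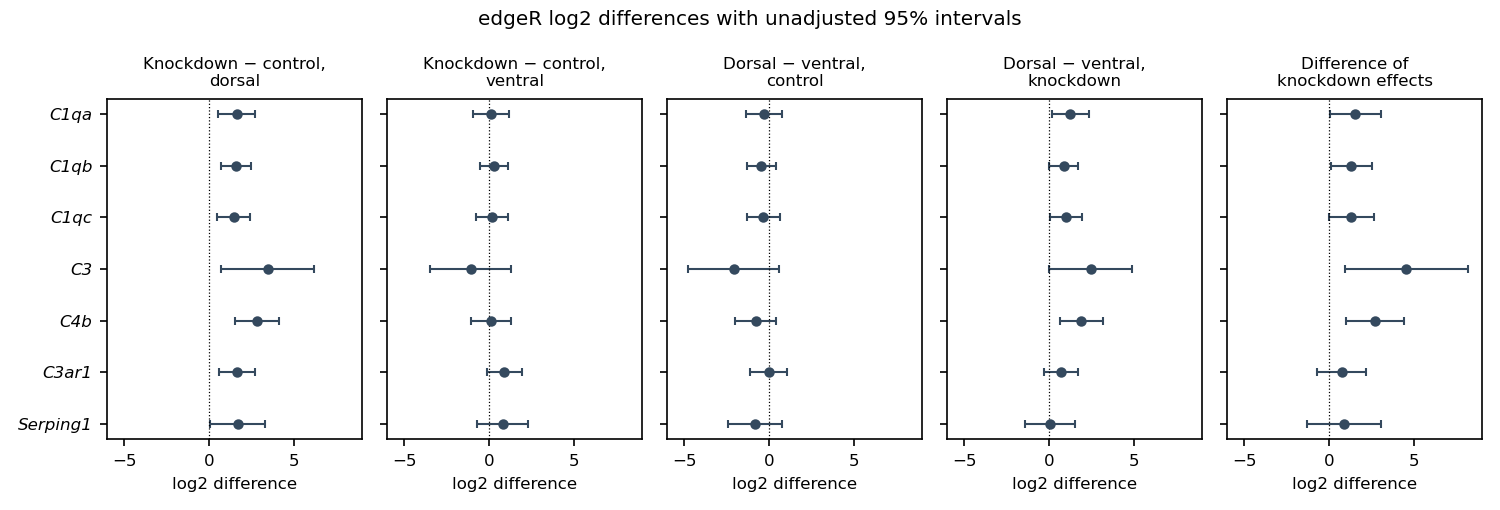
edgeR log2 differences of the 7 tested complement genes (points, x axis in log2 units; bars, unadjusted 95% intervals) in the 5 comparisons, 1 panel each; the dotted line marks no difference. In the dorsal knockdown comparison every interval lies above 0, from 1.46 for C1qc to 3.46 for C3, while in the ventral comparison every interval crosses 0.

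In ventral hippocampus all 8 members overlapped between arms, and C3 differed in sign from the others. Of all tested genes, 1.08% were higher and 1.58% lower in knockdown without overlap. C1qa was at 38.9, 60.3 and 40.4 CPM in ventral knockdown libraries 2 to 4 and at 18.4, 83.7, 34.5 and 37.2 CPM in ventral control libraries 1 to 4. C4b was at 118, 53.1 and 77.7 CPM against 28.3, 136, 62.7 and 80.3 CPM. For both genes the highest ventral library was control 2 and the lowest was control 1. The log2 differences were 0.10 for C1qa (SE 0.49, unadjusted 95% interval -0.94 to 1.14), 0.29 for C1qb (SE 0.39), 0.16 for C1qc (SE 0.43) and 0.11 for C4b (SE 0.55, interval -1.07 to 1.28). These intervals include increases of more than 1 log2 unit. The difference was 0.90 for C3ar1 (SE 0.48, edgeR unadjusted p = 0.0799), which was at 6.03, 1.87 and 4.24 CPM against 1.92 to 2.52 CPM in the controls. Its lowest value was in the library labelled ventral knockdown 3, whose Acss2 level was also the highest.

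Serping1 was at 20.6, 5.41 and 25.3 CPM in ventral knockdown and at 3.79, 9.16, 11.3 and 14.7 CPM in ventral control (log2 difference 0.79, SE 0.70). There, 2 knockdown libraries lay above all controls and the library labelled ventral knockdown 3 lay among the lowest. C3 was at 7.14, 1.04 and 0.723 CPM against 1.98, 4.83, 1.82 and 15.7 CPM (log2 difference -1.08, SE 1.11). Its highest value was in ventral control 4, and without that library the difference was 0.08.

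edgeR called 0 of the 14578 genes (0%) and no member in the ventral comparison, with 593 genes (4.07%) and 0 members below an unadjusted p of 0.05. DESeq2 called 34 genes (0.195%) and no member. A positive difference was found for 6 of the 7 tested members, against 48.2% of all tested genes, with a median of 0.16 against -0.01. That median came to 0.68 without ventral control 2 and to -0.05, with 3 of 7 positive, without ventral control 1. Without the library labelled ventral knockdown 3, 6 of 8 were positive with a median of 0.30, and C3ar1 alone had an unadjusted edgeR p below 0.05 (0.0183, adjusted p = 0.540).

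The direct test of the difference between the dorsal and ventral knockdown effects also called 0 of 14578 genes (0%), with 672 (4.61%) below an unadjusted p of 0.05 and 7 genes (0.0355%) and no member called by DESeq2. The estimates were 1.53 for C1qa (SE 0.70), 1.30 for C1qb (SE 0.56), 1.30 for C1qc (SE 0.62), 4.54 for C3 (SE 1.69), 2.70 for C4b (SE 0.81), 0.73 for C3ar1 (SE 0.69) and 0.89 for Serping1 (SE 1.01). All 7 were positive, against 54.9% of tested genes. C1qa, C1qb, C3 and C4b, 4 of the 7, had an unadjusted edgeR p below 0.05 with a positive sign, against 2.79% of tested genes. Without dorsal knockdown 3, C4b was the 1 that did, at 2.23 (SE 0.76), and 2 did without dorsal control 1, dorsal control 3, ventral control 2 or ventral knockdown 4, each left out alone. Every adjusted p was 0.998, so a regional difference of the knockdown effect was not called for any member. The sample protocol places the vector in the dorsal hippocampus, so region cannot be told apart from place of injection here. This test and the others share libraries, and their values are not independent.

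Between regions, the 7 tested members had negative differences, dorsal minus ventral, in the controls and positive ones in the knockdown libraries, while C5ar1 had a higher mean in dorsal hippocampus in both arms. C5ar1 averaged 0.707 ± 0.309 CPM (SD, n = 3) in dorsal and 0.360 ± 0.291 CPM (SD, n = 4) in ventral controls, and 1.09 ± 0.462 CPM (SD, n = 4) against 0.717 ± 0.364 CPM (SD, n = 3) in knockdown. Fitted without the filter, its log2 differences were 0.90 (SE 0.72) and 0.58 (SE 0.65). In the control arm the 7 log2 differences, dorsal minus ventral, ran from -2.09 for C3 (SE 1.25) to -0.03 for C3ar1 (SE 0.50), and all 8 members overlapped, while 5.67% of tested genes were higher and 3.62% lower without overlap. Negative signs were found in 7 of 7 members, while 43.6% of tested genes had a positive one. edgeR called 0 genes (0%) and 0 members, with 813 genes (5.58%) and 0 members below an unadjusted p of 0.05, and DESeq2 called 12 genes (0.0608%) and no member. Without ventral control 2, the C1qa difference was 0.23 and the C1qc difference 0.18. The C3 difference was -0.93 without ventral control 4.

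In the knockdown arm, C4b was the 1 member that did not overlap between regions, against 1.02% of tested genes in that direction: its dorsal minimum of 136 CPM lay above its ventral maximum of 118 CPM. Its log2 difference was 1.90 (SE 0.58, edgeR unadjusted p = 0.00535, adjusted p = 1.00). C1qa, at 1.25 (SE 0.50), C1qb, at 0.85 (SE 0.39), C1qc, at 0.97 (SE 0.44), and C3, at 2.46 (SE 1.14), also had an unadjusted p below 0.05. These 5 of 7 compare with 1.28% of tested genes, positive signs in 7 of 7 compare with 47.9%, and without dorsal knockdown 3 C4b was the 1 of 7 below that p, at 1.44 (SE 0.55). The count was also 1 without ventral knockdown 4, and 2 without dorsal knockdown 4, ventral knockdown 2 or the library labelled ventral knockdown 3, each left out alone. C3ar1 was at 0.70 (SE 0.46) and Serping1 at 0.033 (SE 0.69), the latter at -1.18 without dorsal knockdown 3. edgeR called 0 genes (0%), with 317 (2.17%) below an unadjusted p of 0.05, and DESeq2 called 0. Region and place of injection cannot be told apart in this arm either. In the total hippocampus library labelled knockdown, C1qa was at 26.1, C1qb at 30.2, C1qc at 25.8 and C4b at 43.3 CPM, and C3 had 1 read. Those levels lie below all 4 dorsal knockdown libraries for the C1q genes and C4b. For the C1q genes they also lie below every dorsal control, and for C4b within the range of the dorsal controls.

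In bulk tissue, fewer cells of a type and less RNA per cell cannot be told apart, so member levels were set beside markers of the cells that could supply them. The 18 microglia markers, none of them a complement gene and with Ctss among the most abundant, summed to 571 to 1232 CPM in dorsal knockdown and to 403 to 589 CPM in dorsal control. All 18 had a positive dorsal difference (median 0.75; 8 with an unadjusted edgeR p below 0.05). Without dorsal knockdown 3 it was 17 of 18, with a median of 0.47 and 5 below that p, and 4 were below it without dorsal control 3. The C1q sum was 26.2%, 26.6%, 46.3% and 33.6% of that microglial sum in dorsal knockdown libraries 1 to 4 and 17.6%, 24.0% and 21.7% in the dorsal controls. The groups did not overlap. The mean share was 33.2% ± 9.39 (SD, n = 4) against 21.1% ± 3.23 (SD, n = 3), a ratio of 1.57, and 1.37 without dorsal knockdown 3. The C1q level was thus further apart between arms than the marker sum in these dorsal libraries. The ventral groups overlapped, at 20.9%, 31.1% and 24.6% in knockdown libraries 2 to 4 and 16.0% to 29.6% in control. The library labelled ventral knockdown 3, and ventral control 2 at 29.6%, lay above dorsal knockdown libraries 1 and 2.

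C4b relative to the microglial sum was 24.0%, 15.3%, 45.8% and 45.1% in dorsal knockdown and averaged 8.68% ± 2.09 (SD, n = 3) in dorsal control, with no overlap and a ratio of 3.75. In the ventral groups the means were 13.2% ± 3.50 (SD, n = 3) in knockdown and 13.1% ± 4.74 (SD, n = 4) in control. Serping1 relative to the microglial sum was 1.67% ± 1.44 (SD, n = 4) in dorsal knockdown and 1.11% ± 0.642 (SD, n = 3) in dorsal control, which overlapped. Without dorsal knockdown 3 the knockdown mean was 0.950%, below that of the controls.

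**Figure D3:**
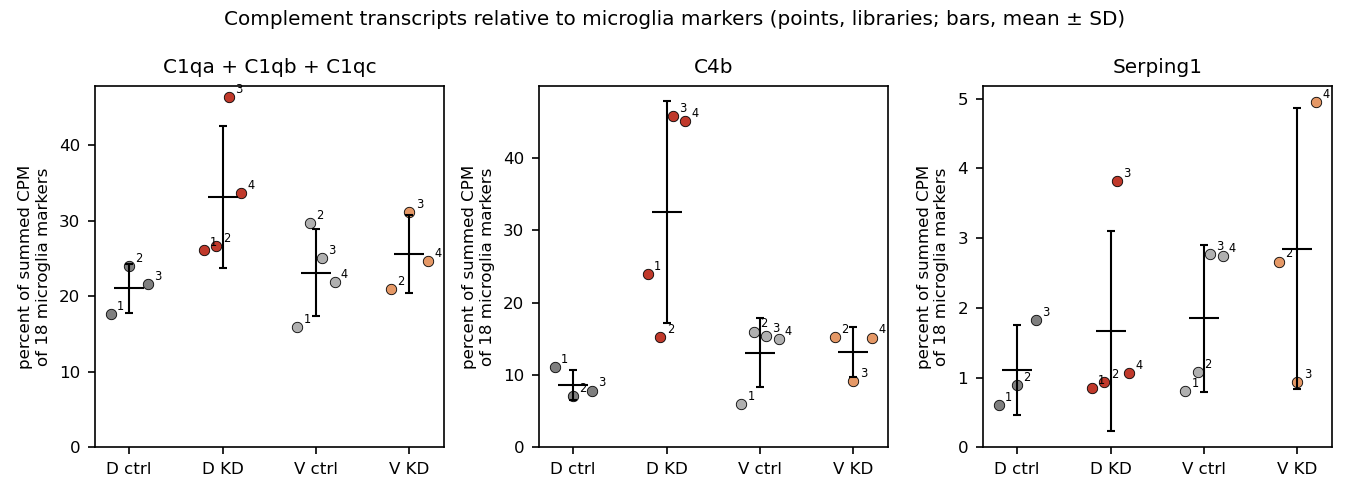
Summed C1qa, C1qb and C1qc (left), C4b (middle) and Serping1 (right), each as a percentage of the summed CPM of 18 microglia markers (y axis, linear, scaled separately for each panel), by group as in the plot of levels. Points are libraries numbered by replicate and bars are the mean ± SD; for C1q the 4 dorsal knockdown libraries lie at 26.2% to 46.3%, above the dorsal controls at 17.6% to 24.0%, and Serping1 overlaps.

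Astrocyte genes differed by kind. The 15 homeostatic astrocyte markers, led by Slc1a2 and Glul, had a median dorsal difference of -0.13, with 3 positive. All 16 reactive astrocyte markers, led by Gfap and Vim, had a positive difference (median 1.71; 8 with an unadjusted edgeR p below 0.05), and their sum was 961 to 4962 CPM in dorsal knockdown against 450 to 675 CPM in dorsal control. Without dorsal knockdown 3, 12 of the 14 that were tested had a positive difference, the median was 0.67 and 4 were below that p, and 5 were below it without dorsal control 3. Relative to this reactive sum, the C1q total was lower in dorsal knockdown than in control on average (ratio of means 0.826), and Serping1 likewise (0.669). The groups overlapped for both. C4b was higher (1.88), at 10.4% to 24.9% against 7.04% to 9.64%, without overlap.

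Other programmes were also high in dorsal knockdown, although the sum of interferon-stimulated genes lay within the control range in library 1. All 14 microglial activation genes, led by Axl and Lpl, had a positive dorsal difference (median 2.17; 9 with an unadjusted edgeR p below 0.05), and so did 24 of 24 interferon-stimulated genes, led by Lgals3bp and Stat2 (median 3.16; 21 below that p). Leaving out dorsal knockdown 3 gave a median of 2.04 for the interferon genes, with 7 of 23 below that p, and without dorsal control 3 the counts were 7 of 24 interferon and 5 of 14 activation genes. The activation sum was 122, 119, 285 and 194 CPM in dorsal knockdown libraries 1 to 4 and 95.1 to 113 CPM in the dorsal controls. Libraries 1 and 2 thus lay close above those controls, and within the ventral control range of 112 to 145 CPM. The interferon sum was 150, 368, 1691 and 699 CPM in dorsal knockdown libraries 1 to 4 and 147 to 175 CPM in the dorsal controls. It was 1125 CPM in ventral control 2, the ventral library with the most C1q and C4b, and at most 381 CPM in the other ventral libraries.

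Blood-cell markers were low, with higher sums on average in dorsal knockdown. Lymphocyte and plasma cell markers, of which only Jchain and Ly9 of 15 were tested, summed to 3.26 to 29.1 CPM in dorsal knockdown. In dorsal control they summed to 0.443 to 1.62 CPM. The 0.443 CPM was in dorsal control 1, where 3 reads make 1.06 CPM before TMM scaling. Monocyte and neutrophil markers, of which 1 of 9 was tested, summed to 0.851 to 10.5 CPM against 0.211 to 0.885 CPM, which overlapped. The neutrophil marker Ly6g had 0 reads in every deep library. edgeR called 0 genes of these lists. Of 6 tested border macrophage markers, led by Mrc1 and F13a1, 2 had a positive difference (median -0.40). Oligodendrocyte (median 0.15, 9 of 12 positive), endothelial (0.06, 5 of 10) and neuron markers (-0.12, 4 of 10) had small differences, and meningeal fibroblast markers had a median of -0.59, with 3 of 12 positive. The part of each of these cell types and programmes in the complement values was not tested.

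Across the 14 libraries the levels of the C1q subunits followed each other most closely of all member pairs. Pearson's r of log2 CPM was 0.98 between C1qa and C1qc, 0.98 between C1qb and C1qc and 0.94 between C1qa and C1qb. C4b followed the mean of the C1q subunits at r = 0.90, and at 0.84 without dorsal knockdown 3. Serping1 followed it at 0.54, and at 0.21 without that library. These values describe 14 libraries that share depth, group and dissection, and they carry no test.

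The members differed in which marker list they followed. The C1q mean went most closely with the microglia list (r = 0.92; 0.88 without dorsal knockdown 3) and the interferon list (0.90; 0.83), and C4b with microglial activation (0.92; 0.88) and microglia (0.86; 0.79). C3ar1 went most closely with microglial activation (0.82; 0.72). Serping1 went most closely with reactive astrocytes (0.88; 0.80). Microglial activation (0.72; 0.56), endothelial cells (0.70; 0.67) and border macrophages (0.68; 0.68) came next among the marker lists. Its r was lower with microglia (0.47; 0.17), and with meningeal fibroblasts it was 0.49, or 0.66 without dorsal knockdown 3. The libraries with the most Serping1, dorsal knockdown 3 at 47.0 CPM and ventral knockdown 4 at 25.3 CPM, differed in the reactive astrocyte and meningeal lists. The first had the highest reactive astrocyte sum, 4962 CPM, and a meningeal sum of 115 CPM, and the second had a reactive astrocyte sum of 698 CPM and the highest meningeal sum, 743 CPM.

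C3 had r = 0.80 with microglial activation (0.69 without dorsal knockdown 3), 0.74 with reactive astrocytes (0.51) and 0.74 with interferon-stimulated genes (0.58). Its r was 0.71 with microglia (0.54) and 0.68 with oligodendrocytes (0.76). The ventral library with the most C3, control 4 at 15.7 CPM, also had a choroid plexus marker sum of 15676 CPM, against 50.7 to 641 CPM in the other ventral controls. C5ar1, at 91 reads over all deep libraries, had r = 0.34 with microglia. Its r was higher with endothelial cells (0.61), oligodendrocyte precursors (0.60) and astrocytes (0.51).

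**Figure D4:**
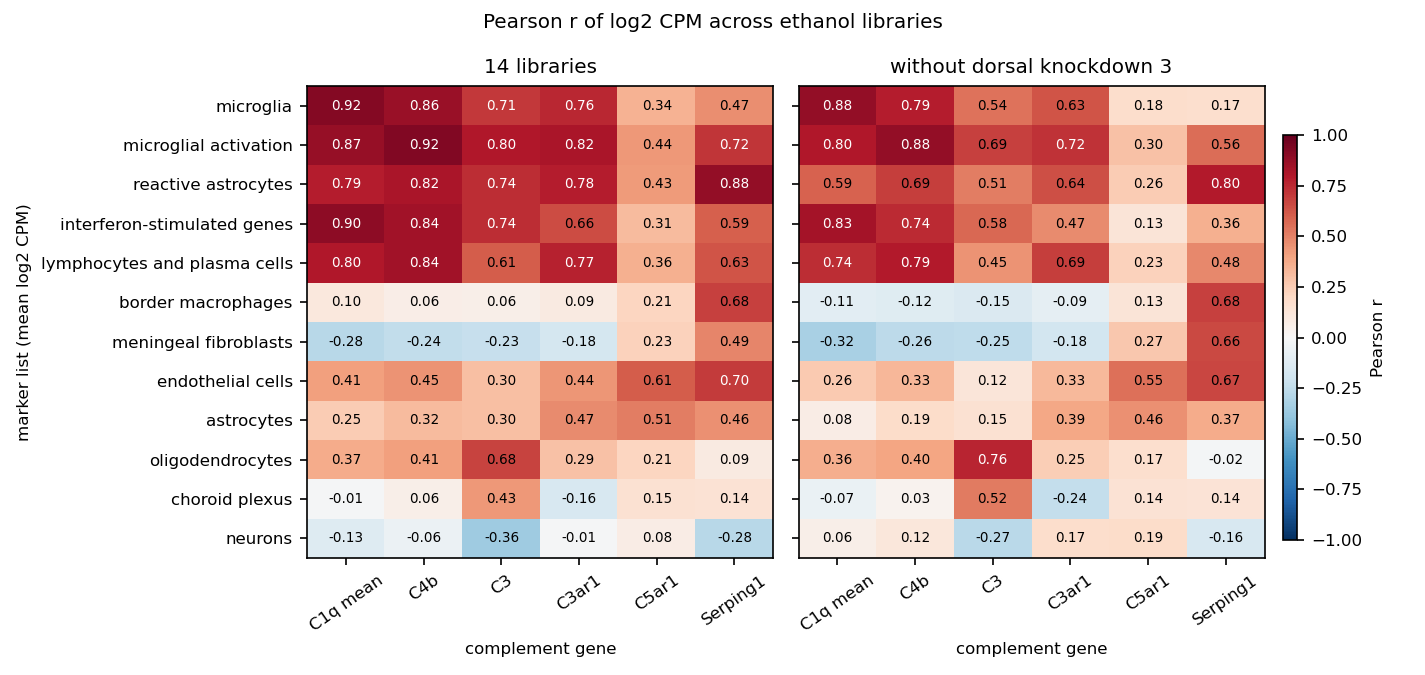
Pearson's r across ethanol libraries between log2 CPM of each complement gene or the mean of the 3 C1q subunits (x axis) and the mean log2 CPM of each marker list (y axis), for 14 libraries (left) and without dorsal knockdown 3 (right); colour and the printed number both give r. C1q mean and microglia reach 0.92 and 0.88, and Serping1 and reactive astrocytes 0.88 and 0.80.

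Over the 11387 genes that averaged 5 CPM or more, those whose level followed the C1q mean most closely were Lag3 (r = 0.97), Cyba (0.95) and S100a6 (0.95). Those closest to C4b were Itgb2 (0.97), Ptpn6 (0.92) and Vav1 (0.92). For C3ar1 they were Dock2 (0.93), Inpp5d (0.92) and Gla (0.89), and for Serping1 Bgn (0.91), Ecm1 (0.87) and Nupr1 (0.86). The closest to C3 were Elf1 (0.90), Pnp (0.88) and Pros1 (0.87), and to C5ar1 Col11a2 (0.93), Sgpl1 (0.91) and Fam109a (0.91). Itgb2 encodes the beta chain of complement receptors 3 and 4.

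A wider list of 50 complement genes outside the 8 had 49 in the table, of which 30 passed the filter. In the dorsal knockdown comparison 19 had a positive and 11 a negative difference (53.3% of all tested genes were positive), the median was 0.18 against 0.03 for all tested genes, none passed the adjusted threshold, and 4 had a positive difference with an unadjusted edgeR p below 0.05, against 3.39% of tested genes. C1ra, a protease of the C1 complex, was at 2.98, 2.91, 7.06 and 4.93 CPM in dorsal knockdown and at 1.33, 0.285 and 1.34 CPM in dorsal control (log2 difference 2.26, SE 0.63). C1s1, its partner protease, was at 1.84, 2.81, 3.37 and 2.27 CPM against 0.885, 0.476 and 1.34 CPM (1.49, SE 0.49). Neither overlapped between groups, against 3.7% of tested genes that were higher in knockdown without overlap. The values in dorsal controls 1 and 2 rest on few reads, since 3 reads make 1.06 and 0.278 CPM there before TMM scaling. The others of the 4 were the receptor chains Itgb2 (1.61, SE 0.41) and Itgax (4.62, SE 1.36), the latter with 0 reads in 2 of the 3 dorsal controls. These 4 were named after their values were seen.

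In the ventral knockdown comparison 14 of the 30 wider genes were positive, against 48.2% of tested genes, and none had an unadjusted edgeR p below 0.05, against 4.07%. Between regions in controls 10 were positive, against 43.6%, with 1 positive and 6 negative below that p, against 2.59% and 2.99%. C1ra, at -1.51 (SE 0.63), and C1s1, at -1.19 (SE 0.49), were among the 6, lower in dorsal than in ventral controls. Between regions in knockdown libraries 16 were positive, against 47.9%, and 2 were positive below that p, against 1.28%: C1s1 at 1.24 (SE 0.46) and Itgb2 at 1.01 (SE 0.39). For the difference of the knockdown effects 18 were positive, against 54.9%, and 4 were positive below that p, against 2.79%: C1ra at 2.45 (SE 0.84), C1s1 at 2.42 (SE 0.67), C1rl at 2.63 (SE 1.10) and Itgb2 at 1.45 (SE 0.56). No adjusted p of these genes passed the threshold in edgeR.

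The other wider genes lay on both sides of 0 in the dorsal knockdown comparison, and none had an unadjusted edgeR p below 0.05. By list, 4 of 5 classical (median 1.14), 1 of 3 lectin (-0.02), 5 of 5 receptor (0.45) and 8 of 15 regulator genes (0.09) had a positive difference, C1ra, C1s1, Itgb2 and Itgax included. C1rl was at 1.14 (SE 0.81) and C2 at 0.61 (SE 0.92) in the classical list, Colec11 at 1.02 (SE 0.53) in the lectin list and C4bp at 1.69 (SE 0.95) among the regulators, named after their values were seen. C4a had a log2 difference of -0.07 (SE 0.45), Colec12 -0.27 (SE 0.59) and Masp1 -0.02 (SE 0.42) in the classical and lectin pathways. Of the alternative pathway, properdin (Cfp) was at -0.36 (SE 0.38), and Cfb did not pass the filter. In the terminal pathway C8g was at 0.25 (SE 0.66) and C7 did not pass. Itgam, at 0.45 (SE 0.34), and Cr1l, at 0.37 (SE 0.27), were taken from the receptor list. Clu, at 0.57 (SE 0.33), and Sez6l2, at -0.30 (SE 0.29), were taken from the regulator list. All of these had intervals that include 0. Of the C1q-domain genes outside complement, C1ql3 was at 0.57 (SE 0.40) and C1ql2 at 0.12 (SE 0.83), and the 6 of them had 3 positive and 3 negative differences, a median of -0.30 and a minimum of -1.18 (Cbln1). Mbl1, Colec10, Cfd and C9 had 0 reads in every deep library, which allows up to 3 reads in each for counting error alone.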

How the data were processed

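Whole-number gene counts of 21 libraries were deposited by the authors. Per the submitters' processing notes, reads were processed with STAR 2.5.2a and HTSeq 0.6.1p1 on mm10; no source used here gives the annotation or the strand setting of the counting. The 5 summary lines of the count table, which name no gene, entered neither library sizes nor tests; in the deep ethanol libraries 18.3% to 42.3% of uniquely placed reads were outside genes.

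The 14 dorsal and ventral ethanol libraries with over 1000000 gene reads were fitted with 4 group means in edgeR 4.0.16 (R 4.3.3): filter by expression with a minimum count of 10, TMM scaling, robust quasi-likelihood F-tests, two-sided, with Benjamini-Hochberg adjustment over all 14578 tested genes and a threshold of 0.05. Standard errors and unadjusted 95% intervals were derived from the F statistics. Levels are TMM-scaled CPM over the 15 deep ethanol libraries, and the total hippocampus library enters no test. Likeness is Pearson's r of log2 CPM with a prior count of 1. DESeq2 1.42.0, RLE scaling, no filter, only the compared groups, all 20 dorsal and ventral libraries, a replicate block and leaving out each library were tried as alternatives. The fits were tested on simulated counts. Descriptive tables were made with Python 3.11.15.

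The members and gene lists were chosen with earlier results of these data known. All 8 members are named; of other lists, the 2 most abundant genes, any called gene, complement genes without reads and the 3 genes closest to each member (predicted or clone-named genes left out) are named. A gene that this rule would name is not reported here.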

Additional observations from a re-analysis of the deposited data

Results flagged for a closer look

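Serping1 in dorsal knockdown 3, at 47.0 CPM, lay far from the other 3 dorsal knockdown libraries at 4.82 to 9.46 CPM, by Dixon's criterion for a single distant sample. Of 16 groups of 4 libraries examined for the 8 members this was the 1 so marked, and chance marks about 1 in 20.

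In the untreated libraries, which entered no comparison, dorsal knockdown 1 held 4 reads of C4b and dorsal control 2 held 5 reads of C1qa, each above the 3 reads that a count of 0 allows for counting error alone.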

How the results depend on the processing

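Of 497 refitted values of the members, 482 kept their sign and side of the threshold. With DESeq2, C4b in the dorsal knockdown comparison passed (log2 difference 2.79), which gave 1 called member. DESeq2 called 6 genes for knockdown in dorsal, 34 in ventral, 12 between regions in controls and 7 for the difference of knockdown effects, and the fit of all 20 dorsal and ventral libraries called 1 gene for knockdown in ventral and 1 for that difference; edgeR had called 0 in each. Leaving out 1 library gave 0 to 8 called genes for knockdown in ventral (8 without ventral control 1), 0 to 6 between regions in controls (6 without ventral control 1) and 0 to 2 for the difference of effects (2 without ventral knockdown 3, 1 without ventral control 1), and 0 members in all of these. The cause was not tested.

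The sign changed for 14 values, none of them in the dorsal knockdown comparison. Leaving out 1 library moved the ventral difference over -0.15 to 0.62 for C1qa, -0.052 to 0.68 for C1qc, -0.23 to 0.53 for C4b and -2.80 to 0.082 for C3. It moved the dorsal minus ventral control difference over -0.54 to 0.23 for C1qa, -0.55 to 0.18 for C1qc and -0.44 to 0.29 for C3ar1. For Serping1 it moved the knockdown difference between regions over -1.18 to 0.43 and the difference of effects over -0.32 to 1.28.

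Replicate numbers paired no samples by the labels, and same-numbered libraries deviated together with r from -0.22 to 0.24 in the dorsal comparison and from -0.05 to 0.22 in the ventral one. Between regions, r ran from -0.16 to 0.09 in controls and from -0.14 to 0.37 in knockdown. Libraries with different numbers spanned wider ranges in the same order of comparisons: -0.36 to 0.35, -0.45 to 0.33, -0.33 to 0.28 and -0.38 to 0.37. With the replicate number as a block, 0 genes were called in each of the 5 comparisons, and the ventral C1qa difference was -0.032. The low depth of C5ar1, C3 and C3ar1 limits what could be shown for them.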
